A study of Mus musculus with 24 samples.

Results

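The miR-181 family is described here through its 4 mature 5p members, mmu-miR-181a-5p, mmu-miR-181b-5p, mmu-miR-181c-5p and mmu-miR-181d-5p, out of 1881 mouse miRNAs on an array that was used on serum and liver. The prefix mmu- (mouse) is left out below. They were taken by name, with both probes of each member on all 24 arrays. The family had been selected on its measured diet differences, lower in serum of mice with diet-induced steatohepatitis but not in their liver. That choice rested on the diet contrasts of these same arrays, so the diet differences of the members are given below as descriptions, with no test. In liver the measured levels of all 4 members were higher on the model diet, a contrast that the choice had also used. No control liver detected miR-181b-5p or miR-181d-5p.

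The animals were male C57BL/6NJcl mice, delivered when 5 weeks old and given 1 week to settle. The model group (NASH, for non-alcoholic steatohepatitis) then ate CDAHFD, a high-fat chow without choline that holds 0.1% methionine, and the control group ate the standard chow CE-2. Serum from cardiac blood, and liver, were collected when the diet had run for 1, 2 or 6 weeks (labelled ages 7, 8 and 12 weeks), and no group carried a genetic change or another agent. Each of the 12 groups of tissue, diet and week had 2 one-colour Agilent miRNA arrays. No label tells whether both arrays of a group are different animals, so each p-value reflects only array-to-array spread, which could be technical. Serum arrays received 2.5 ng of RNA and liver arrays 100 ng. As a model, choline deficiency on a high-fat chow is known to give a fatty, inflamed and later fibrotic liver without the obesity common in the human disease.

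A mature miRNA guides an Argonaute protein to messenger RNAs, mainly through its seed, bases 2 to 8 from the 5′ end, and lowers their translation and stability. The miR-181 family is best known in lymphocytes, where miR-181a sets the sensitivity of the T cell receptor in developing T cells and the family takes part in B and NKT cell development. In vascular endothelium miR-181b is known to dampen NF-kB signalling. In serum, miRNAs travel in vesicles or bound to Argonaute and lipoproteins, and they can come from many tissues.

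The 4 mature sequences, from RefSeq (GRCm38.p6), are shown because the members are nearly the same molecule, and the capitals mark the seed.
mmu-miR-181a-5p: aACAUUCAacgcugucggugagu
mmu-miR-181b-5p: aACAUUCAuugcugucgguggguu
mmu-miR-181c-5p: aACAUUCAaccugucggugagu
mmu-miR-181d-5p: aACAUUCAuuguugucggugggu

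All 4 members shared the seed ACAUUCA, and no other of the 1679 mature names in the RefSeq table carried it. Counted from 1 at the 5′ end, miR-181d-5p differed from miR-181a-5p by A9U, C10U, C12U and A21G. Against miR-181b-5p it differed by C12U and was 1 base shorter. A single deletion, G11del, separated miR-181c-5p from miR-181a-5p. With 1 to 5 edits between any pair, signal on a probe may be partly shared between members, which was not tested. The members came from 6 hairpins in 3 pairs: Mir181a-1 with Mir181b-1 on chromosome 1, Mir181a-2 with Mir181b-2 on chromosome 2, and Mir181c with Mir181d on chromosome 8. Mir181a-1 and Mir181b-1 lay 97 bases apart, Mir181a-2 and Mir181b-2 1019 bases, and Mir181d and Mir181c 85 bases. Mature miR-181a-5p and miR-181b-5p are each made by 2 loci, which the array cannot tell apart. The 6 opposite (3p) arms were flagged as detected on 0 of 24 arrays, with a highest intensity of 4.55 units, so only the 5p arms are described further.

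Both an intensity and a level are given below. The intensity is the deposited background-subtracted signal of a member's brightest probe, averaged over 12 to 15 spots. The level is that intensity as a percentage of the 75th percentile of the array's well-measured probes, which allows for arrays that are brighter throughout. The members were dim. Their levels were a few percent of that percentile, and the standard error over spots was typically 0.644 intensity units in serum and 0.575 in liver. The 75th percentile itself moved with diet: it was 144 to 642 units on control and 338 to 578 units on NASH serum arrays (two-sided exact permutation within weeks, p = 0.0278, and 0.00926 is the smallest p this design allows). In liver it was 394 to 646 and 505 to 868 units (exact permutation p = 0.0278). NASH arrays also had more miRNAs detected, 313 to 399 against 235 to 362 in serum and 337 to 379 against 253 to 307 in liver (exact permutation p = 0.00926 in each). For that reason the intensities of every array are drawn as well as the levels, and they are given in the text for part of the comparisons. The part of these differences in the results was not tested.

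In serum every member was lower on NASH diet. The mean level of miR-181a-5p was 8.27% ± 4.95 (SD, n = 6) in control and 2.05% ± 0.975 (SD, n = 6) in NASH serum, a ratio of 0.248. For miR-181b-5p it went from 8.15% ± 4.90 to 1.89% ± 0.525 (SD, n = 6 each), a ratio of 0.232. The pair made from chromosome 8 showed ratios nearer to 1. miR-181c-5p stood at 4.83% ± 1.38 in control and 2.03% ± 0.865 in NASH serum, a ratio of 0.420, and miR-181d-5p at 5.26% ± 2.07 and 1.59% ± 0.487, a ratio of 0.303 (SD, n = 6 each). Each of the 6 NASH arrays lay below the control mean of its week for all 4 members. For miR-181b-5p, miR-181c-5p and miR-181d-5p no NASH array reached the lowest control array, a separation that 5.63% of the 426 miRNAs tested in serum showed; the choice of members used this contrast, so nothing is read from that share. The diets overlapped for miR-181a-5p, through control week 1 replicate 1 alone (2.20%, against a highest NASH level of 3.12%).

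Week by week, miR-181a-5p levels were 2.20% and 3.26% on the control serum arrays of week 1 and 1.45% and 2.01% on the NASH arrays. At week 2 they were 8.97% and 15.6% in control and 3.05% and 3.12% in NASH serum. After 6 weeks they were 10.7% and 8.81% in control and 2.12% and 0.556% in NASH serum. On levels the diets were close in week 1 and well apart in weeks 2 and 6, with control serum higher in the later weeks and NASH serum below 3.2%. Control intensities were 8.02 and 20.9 units at week 1, 20.6 and 22.5 at week 2, and 18.0 and 16.7 at week 6. The 75th percentile of the same arrays was 365 and 642 units, then 230 and 144, then 168 and 190.

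miR-181b-5p, which shares hairpin clusters with miR-181a-5p, had the same course on levels. Its mean intensities in control serum were 19.5 units at week 1, 23.6 at week 2 and 13.1 at week 6. The control levels of miR-181b-5p were 3.49% and 4.08% at week 1, 10.1% and 16.7% at week 2, and 6.09% and 8.41% at week 6. NASH levels were 1.94% and 2.10%, 1.76% and 2.75%, and 1.64% and 1.17%. The NASH to control ratio was 0.533 at week 1 and 0.168 at week 2, and the diets did not overlap in any week.

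On levels, though not on intensities, miR-181c-5p varied least between control weeks, at 3.21% and 5.04%, then 4.97% and 6.53%, then 6.03% and 3.23%. In NASH serum it was 2.11% and 2.67% at week 1, 2.60% and 2.73% at week 2, and 1.56% and 0.516% at week 6. The ratio was 0.579 at week 1 and 0.463 at week 2.

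miR-181d-5p read 2.87% and 3.99% in control serum at week 1, 5.82% and 8.92% at week 2, and 5.24% and 4.70% at week 6. NASH serum gave 1.66% and 2.02%, 1.45% and 2.12%, and 1.56% and 0.756%. Its ratio was 0.537 at week 1 and 0.242 at week 2, with no overlap between diets in any week. For week 6 no ratio is given, because no NASH array of that week detected any member. Bounds for miR-181a-5p, miR-181b-5p and miR-181d-5p are given below. Ordered by measured level, control week 2 was the highest group for all 4 members and NASH week 6, which was not above background, the lowest. Neighbours in that order often overlapped: for miR-181a-5p, control weeks 2 and 6 did, NASH week 2 and control week 1 did, and NASH weeks 1 and 6 did.

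**Figure D1:**
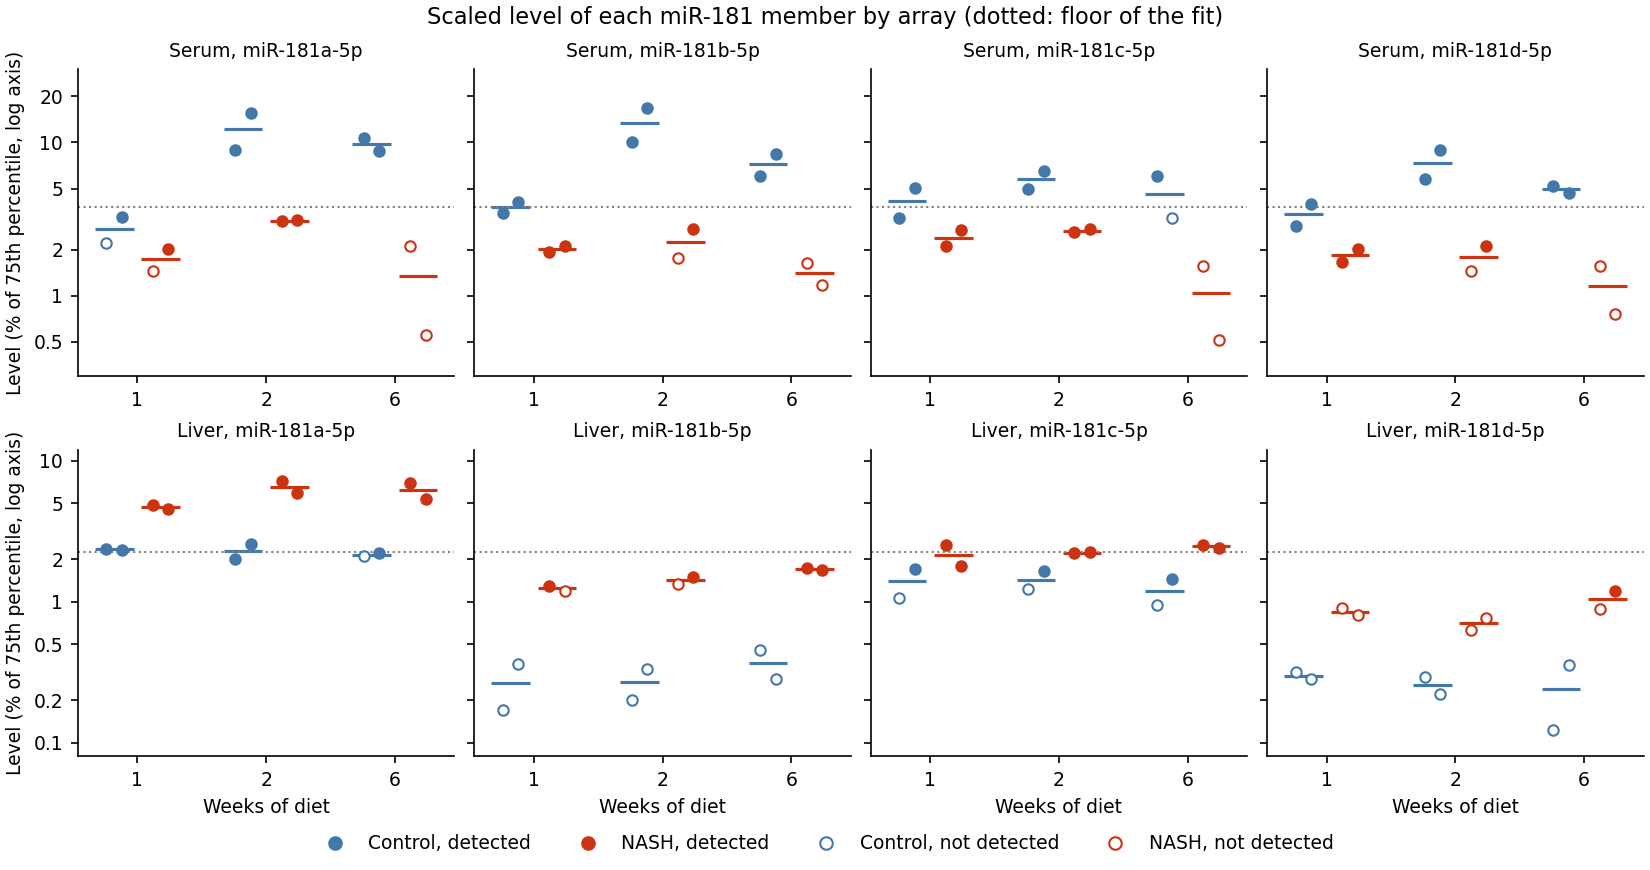
Level of each miR-181 member on every array, as a percentage of the 75th percentile of the array's well-measured probes, on log axes (serum above, liver below; weeks of diet on the x axis). Points are single arrays, filled where the miRNA was flagged as detected, short lines are means of 2 arrays, and the dotted line is the floor used in the fit (3.81% in serum, 2.25% in liver); NASH points lie below control points of the same week in serum and above them in liver.

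Detection flags moved the same way. miR-181a-5p was detected on 5 of 6 control and 3 of 6 NASH serum arrays, miR-181b-5p and miR-181d-5p on 6 and 3, and miR-181c-5p on 5 and 4. None of the 4 was detected on either NASH array of week 6. Control serum was there at least 2.94-fold higher for miR-181a-5p, 2.16-fold for miR-181b-5p and 1.5-fold for miR-181d-5p. These bounds set the mean of both control arrays against the dimmest probe well above background on the NASH arrays. For miR-181c-5p the same comparison gave 1.33-fold. That value is not a bound, because 1 of the 2 control arrays (3.23%) did not detect miR-181c-5p.

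Unscaled intensities kept the direction of the group means and lost the separation. For miR-181a-5p the control mean was 17.8 ± 5.22 units and the NASH mean 8.78 ± 3.77 (SD, n = 6 each), a ratio of 0.493. The ratio was 0.448 for miR-181b-5p, 0.535 for miR-181d-5p and 0.676 for miR-181c-5p, and the diets overlapped for all 4; 0.939% of tested miRNAs had every NASH array below every control array on this scale. At week 2 the intensity of miR-181c-5p was 11.4 and 9.40 units in control and 10.1 and 10.2 units in NASH serum, a ratio of 0.973, so its lower level in that week came with the higher 75th percentile of the NASH arrays (387 and 374 units against 230 and 144). At week 6 miR-181a-5p read 18.0 and 16.7 units in control and 7.18 and 2.27 units, not above background, in NASH serum. The diets did not overlap in that week for any member on intensities.

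**Figure D2:**
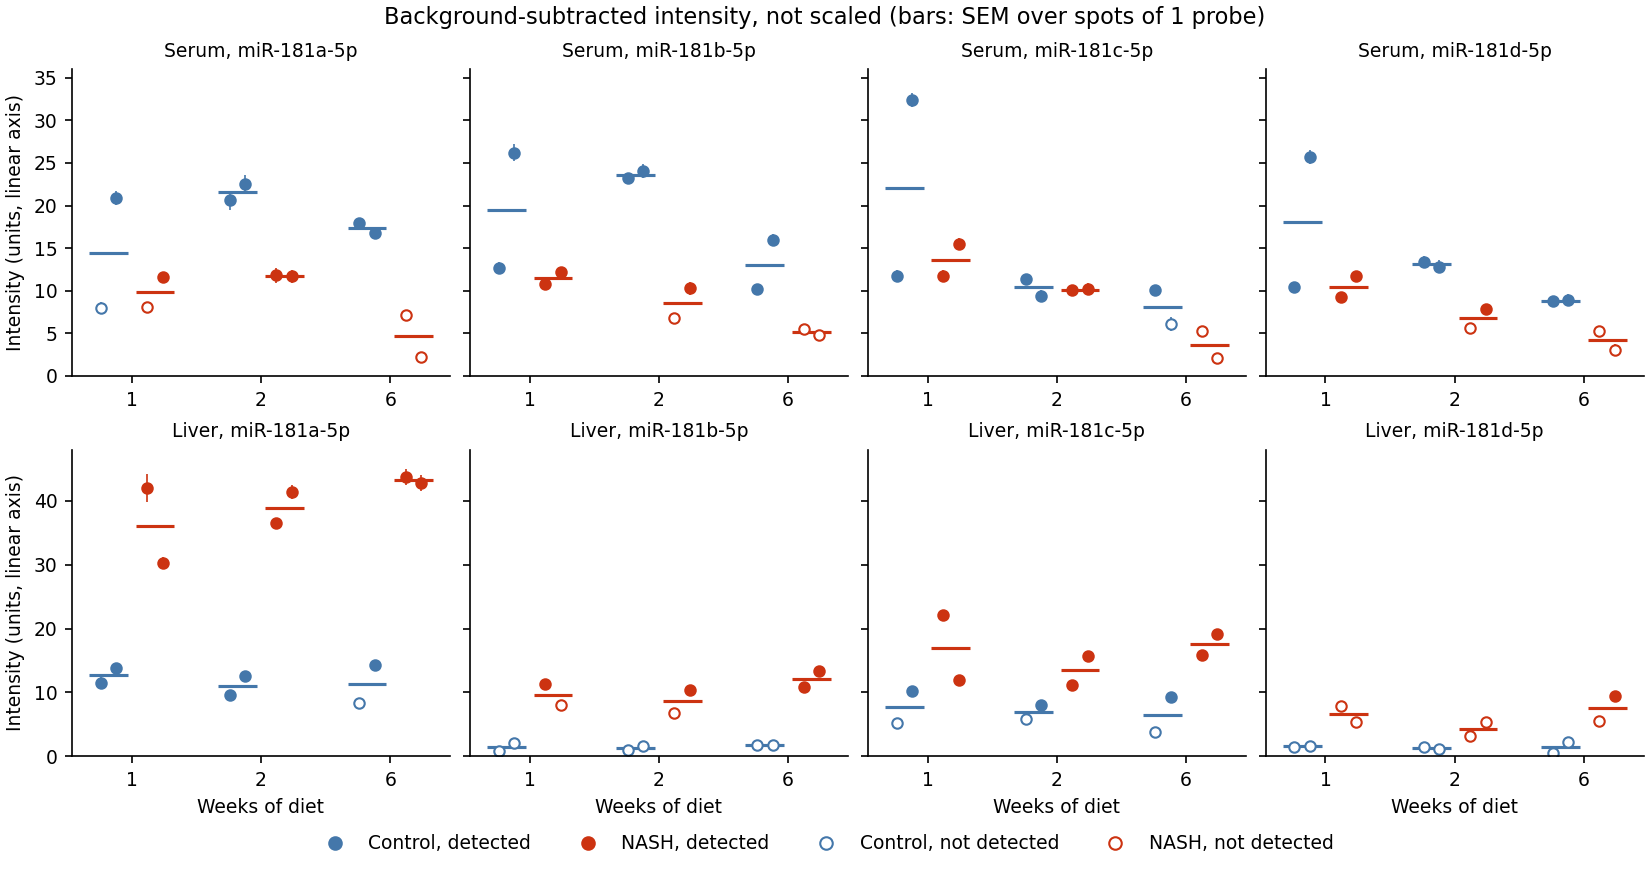
Background-subtracted intensity of the brightest probe of each member, not scaled, on linear axes (serum above, liver below; weeks of diet on the x axis). Points are arrays with the standard error over spots as bars, filled where detected, and lines are means of 2 arrays; the serum diets overlap at week 1 for miR-181a-5p, miR-181c-5p and miR-181d-5p and at week 2 for miR-181c-5p, and the liver diets are apart for every member.

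On the fitted log2 scale the serum differences were -0.995 (SE 0.14) for miR-181a-5p, -0.91 (SE 0.14) for miR-181b-5p, -0.37 (SE 0.14) for miR-181c-5p and -0.44 (SE 0.10) for miR-181d-5p, as the mean of the 3 weekly differences in limma. Those sizes are held small by the floor of 3.81%, which all 24 NASH values of the members lay under. With 0.25 of that floor, chosen after seeing the data, they were -1.79, -1.95, -1.24 and -1.65, and with no scaling -0.41, -0.44, -0.18 and -0.15. Over all 426 miRNAs tested, 80 (18.8%) passed an adjusted p under 0.05 for diet in serum, 59 lower (13.8%) and 21 higher (4.93%), and the median difference was -0.11.

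In liver the order of the diets was the reverse. The mean level of miR-181a-5p was 2.26% ± 0.204 in control and 5.81% ± 1.11 in NASH liver (SD, n = 6 each), a ratio of 2.57. Control livers held 2.38% and 2.33% at week 1, 2.00% and 2.57% at week 2, and 2.10% and 2.21% at week 6. NASH livers held 4.83% and 4.51%, 7.22% and 5.90%, and 6.98% and 5.39%. The control livers were nearly flat over the weeks, and the lowest NASH liver exceeded the highest control liver. Its intensities were 8.29 to 14.3 units in control and 30.3 to 43.7 units in NASH liver, a ratio of 3.38.

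The other members were fainter in liver and were also higher on NASH diet. miR-181b-5p was detected on 0 of 6 control and 4 of 6 NASH livers, with mean levels of 0.301% ± 0.106 and 1.46% ± 0.214 (SD, n = 6 each). Its control levels ran from 0.170% to 0.457% with a median of 0.308%, and its NASH levels from 1.20% to 1.72% with a median of 1.42%. Because it was undetected in control liver and close to background in NASH liver, no fold is given for it. The same holds for miR-181d-5p, which 0 control and 1 NASH liver detected, at 0.265% ± 0.0823 and 0.864% ± 0.187 (SD, n = 6 each). miR-181c-5p was detected on 3 control and 6 NASH livers, and its levels were 0.951% to 1.72% in control and 1.78% to 2.54% in NASH liver, a ratio of means of 1.71. In all 4 members every NASH liver lay above every control liver, on levels and on unscaled intensities alike. Of the 388 miRNAs tested in liver, 18.6% showed this separation on levels and 27.3% on intensities; the choice of members used the liver contrast too, and nothing is read from these shares.

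By week the liver ratios of miR-181a-5p were 1.99, 2.87 and 2.87, and those of miR-181c-5p 1.55, 1.56 and 2.07 at weeks 1, 2 and 6. Fitted in limma, the mean of the weekly differences was 1.29 (SE 0.084) on the log2 scale for miR-181a-5p and 0.075 (SE 0.030) for miR-181c-5p. miR-181b-5p was at the floor of 2.25% on all 12 livers and so had a fitted difference of 0, and miR-181d-5p, detected on 1 liver, was not tested. With normexp background correction, which adds an offset of 50 to every signal, the difference was 0.034 for miR-181a-5p and -0.11 for miR-181c-5p. For diet in liver, 164 of 388 miRNAs (42.3%) passed, 85 higher (21.9%) and 79 lower (20.4%). In bulk liver or serum, fewer cells of a type and less of the miRNA per cell cannot be told apart.

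**Figure D3:**
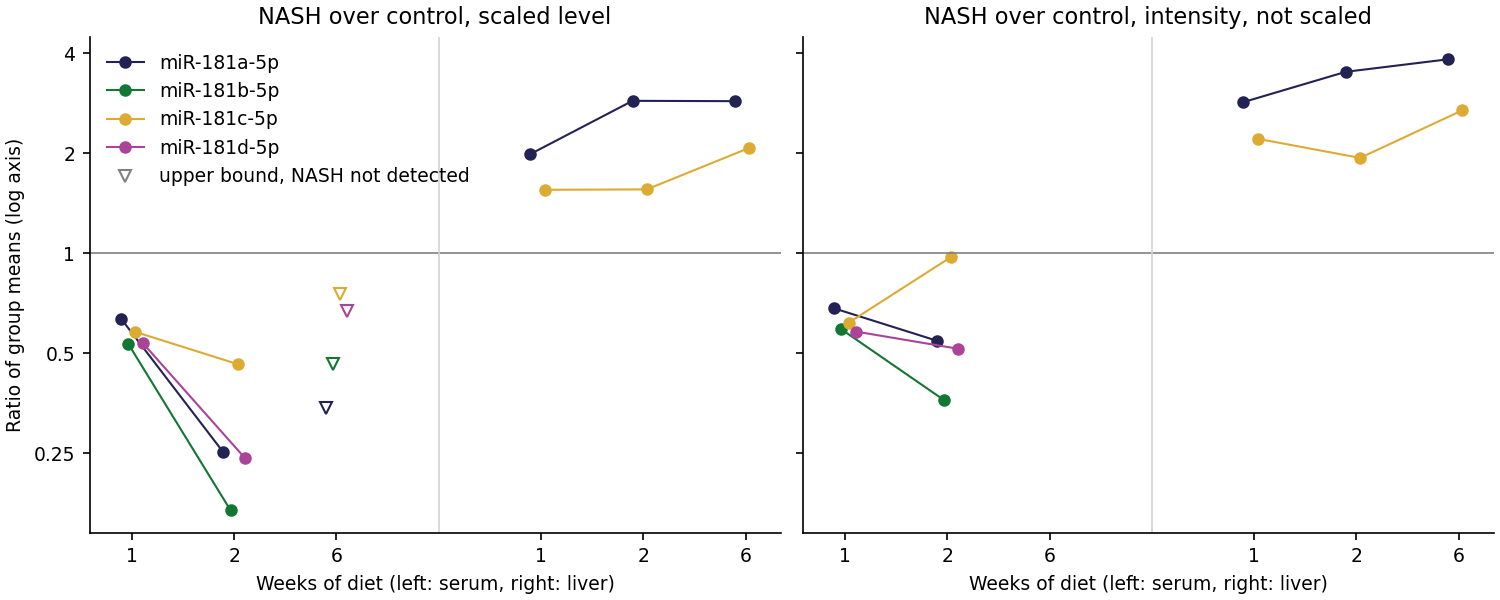
NASH to control ratio of the mean of 2 arrays, by week of diet, for levels (left panel) and unscaled intensities (right panel), on log axes; in each panel serum is on the left and liver on the right, with 1 line per member and a grey line at 1. Ratios are drawn where both diets had an array that detected the member, which leaves out miR-181b-5p and miR-181d-5p in liver and all members in serum at week 6, where triangles in the left panel mark the highest ratio that the bounds allow. The triangle of miR-181c-5p is not a bound, because 1 of the 2 control arrays of that week did not detect it. The serum ratios drawn lie below 1, the nearest being miR-181c-5p at week 2 on intensities (0.973), and the liver ratios of miR-181a-5p and miR-181c-5p lie above 1.

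The second probe of each member gave group means in the same direction, with weaker signals. For miR-181a-5p the second probe averaged 1.5 intensity units in control and -0.650 in NASH serum, and 0.903 and 10.3 units in control and NASH liver. For miR-181b-5p it read 9.63 and 3.23 units in serum, and -1.76 and 3.83 units in liver. In serum the levels of the diets overlapped for the second miR-181a-5p probe, and in liver the intensities overlapped for the second miR-181c-5p probe (up to 6.63 units in control and from 6.15 in NASH liver). On all 4 second probes the levels of the 6 NASH arrays lay below the control mean of their week in serum and above it in liver.

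On mean levels, control serum of the later weeks stood above week 1, with overlap for miR-181c-5p. On unscaled intensities week 6 means lay below week 1 for miR-181b-5p (13.1 against 19.5 units), miR-181c-5p (8.11 against 22.0) and miR-181d-5p (8.85 against 18.1). For miR-181a-5p the week 6 mean lay above (17.4 against 14.5). Week 6 sera also lay on a different slide from those of weeks 1 and 2. On the fitted log2 scale, week 2 was above week 1 by 1.63 (SE 0.24) for miR-181a-5p, 1.72 (SE 0.24) for miR-181b-5p, 0.88 (SE 0.18) for miR-181d-5p and 0.38 (SE 0.24) for miR-181c-5p. All 4 members lay at the floor on the 4 NASH serum arrays of those weeks, so these values restate the diet differences of week 2, which were -1.63, -1.77, -0.92 and -0.58 in the same order of members. They are therefore given with no test. They also moved with scaling: the 75th percentile of control serum was 365 and 642 units at week 1 and 230 and 144 at week 2, and with no scaling the values were 0.33 for miR-181a-5p, 0.31 for miR-181b-5p, -0.44 for miR-181d-5p and -0.61 for miR-181c-5p. Over all 426 miRNAs 5 (1.17%) passed in limma between these weeks, 2 higher (0.469%) and 3 lower (0.704%).

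In liver, where miR-181a-5p lay above the floor on most arrays, week 6 was compared with week 2 inside each diet, since both weeks lay on 1 slide. In control liver miR-181a-5p differed by -0.096 (SE 0.14). Both control arrays of week 6 and replicate 1 of week 2 (2.00%) lay under the floor, so that value is set largely by the floor and has no test. In NASH liver miR-181a-5p differed by -0.090 (SE 0.14, limma adjusted p = 0.966). Across all 388 miRNAs 2 (0.515%) passed in control and 13 (3.35%) in NASH liver. miR-181c-5p was at the floor in control liver of those weeks, so its value in NASH liver (0.14, SE 0.053) restates the diet difference of week 6 and has no test. A moderated F in limma for a diet difference that changed between weeks passed for 0.469% of miRNAs in serum and 3.35% in liver; it compares the weekly diet differences by which the members were chosen, so none is given for them.

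On control chow the family sat higher in serum than in liver, relative to the brighter miRNAs measured in both tissues. The control arrays of this comparison are also those of the diet contrasts behind the choice of members, so the members' differences have no test. All 4 members lay under the floor of this fit (1.61%) on every control liver. The liver side of each fitted difference is therefore that floor, and its size and SE are limited by it. These levels come from 1 scaling over all 24 arrays on 163 probes and are therefore not those given above. miR-181a-5p was 5.16% ± 2.73 in serum and 0.841% ± 0.143 in liver (SD, n = 6 each), and its liver minus serum difference in limma was -1.45 on the log2 scale (SE 0.11). miR-181c-5p was 3.07% ± 0.753 and 0.485% ± 0.0546, a difference of -0.89 (SE 0.13). miR-181b-5p was 5.06% ± 2.54 in serum, at least 5.05-fold above liver, where no control array detected it (difference -1.48, SE 0.091). miR-181d-5p was 3.30% ± 0.990 in serum and at least 3.54-fold higher there (difference -0.97, SE 0.074). For all 4, every control serum array lay above every control liver array. Most miRNAs differed between the tissues: 351 of 526 (66.7%) passed, 264 of them (50.2%) lower in liver, and 47.5% had all control livers below all control sera.

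Within the slide that held both tissues, week 1 livers against week 6 sera, the differences were -2.01, -1.57, -0.87 and -1.04 for miR-181a-5p to miR-181d-5p in that order. With no scaling, the differences of miR-181c-5p (-0.20) and miR-181d-5p (-0.15) were smaller, on arrays that had received 2.5 ng of serum RNA and 100 ng of liver RNA. On NASH diet the serum to liver ratio of mean levels was 0.479 for miR-181a-5p, 1.77 for miR-181b-5p and 1.22 for miR-181c-5p, against 6.13 for miR-181a-5p and 6.33 for miR-181c-5p on chow. The tissues overlapped on NASH diet for all 4 members. That shift follows from the diet differences by which the members were chosen and has no test.

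The miRNAs whose levels followed miR-181a-5p most closely over the 12 serum arrays were miR-142a-3p, a leukocyte miRNA, miR-3968 and miR-652-3p. Likeness was the mean absolute distance between log2 levels, each centred on its own mean, over 196 miRNAs flagged as detected on all 12 serum arrays. It was 0.49, 0.52 and 0.56 for these 3, and the median was 1.01. miR-181b-5p (0.41) was closer than any of the 196, and miR-181d-5p (0.51) and miR-181c-5p (0.58) would have ranked among the first 7. Their serum diet differences were -1.34 for miR-142a-3p, -1.42 for miR-3968 and -0.97 for miR-652-3p. In liver the closest were miR-1949 (0.093), miR-15b-5p (0.19) and miR-5622-3p (0.23) among 218, with a median of 0.74. There miR-181c-5p came at 0.33 and miR-181b-5p at 0.55, which would have ranked 16 and 50. The 3 closest had diet differences of 1.36, 0.96 and 1.15. The choice of members used the diet contrasts of both tissues, so nothing is read from these ranks or from those diet differences.

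Markers of cells in which the family is known were read beside it. Over all miRNAs tested, 4.93% rose and 13.8% fell in serum, and 21.9% rose and 20.4% fell in liver. Of 7 lymphocyte miRNAs in serum, 3 fell (miR-142a-3p by 1.34, miR-150-5p by 1.32 and miR-155-5p by 0.19 on the log2 scale), 1 rose (miR-342-3p, 1.70) and 3 did not pass (limma adjusted p 0.00107 to 0.0264 for the 4 calls). The smallest of these p-values was that of miR-155-5p, which was detected on 5 serum arrays. Without scaling 0 of the 7 fell and 2 rose, and miR-155-5p stood at 0.015. The list's median difference was 0.00, against -0.11 over all miRNAs. Its summed level ran from 207% to 475% in control and 306% to 1506% in NASH serum. In liver 5 of the 7 rose (3 with the percentile over all probes), 0 fell and 2 did not pass, and the median was 0.65 against 0.00 over all miRNAs. miR-342-3p rose by 2.41, miR-155-5p (detected on 7 livers) by 1.28 and miR-150-5p (on 9 livers), a marker of mature lymphocytes, by 0.45. The summed lymphocyte level was 96.0% to 138% in control and 207% to 300% in NASH liver, so it was higher together with the miR-181 members there.

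Among 8 endothelial miRNAs in serum, miR-10b-5p fell by 1.32, miR-221-3p rose by 0.83 and 6 did not pass, including the defining miR-126a-3p (-0.997, SE 0.42, limma adjusted p = 0.182). With no scaling none of the 8 fell. In liver 2 rose (miR-221-3p by 0.71 and miR-222-3p, detected on 6 livers, by 0.43), 2 fell (miR-126a-5p and miR-126a-3p, the latter by 0.53) and 4 did not pass. Of all miRNAs tested in liver 21.9% rose and 20.4% fell, so nothing is read from these counts. Without scaling 2 rose and 0 fell, and with quantile normalization miR-126a-3p stood at 0.018. The endothelial sum was 515% to 992% in control and 414% to 761% in NASH serum, and 797% to 1023% and 513% to 943% in liver. The myeloid miR-223-3p did not pass in serum (-0.35, SE 0.26) and rose by 1.73 in liver. For smooth muscle miR-143-3p and miR-145a-5p, none passed in either tissue, and they were detected on 5 and 4 serum arrays. The sum of that list was nonetheless 6.75% to 15.1% in control and 0.357% to 4.11% in NASH serum. In liver it was 12.2% to 18.7% and 12.8% to 23.1%.

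Other tissues moved with the serum groups as well. The counts below stand beside 4.93% higher and 13.8% lower over all miRNAs tested in serum, and 21.9% higher and 20.4% lower in liver. Hepatocyte miRNAs were higher in NASH serum for 5 of 8 tested, led by miR-122-5p (3.82), with 0 lower. Their sum was 106% to 457% in control and 1939% to 3230% in NASH serum. In liver 8 of 9 fell and 0 rose, while 3 fell with no scaling and 6 with the percentile over all probes. Skeletal muscle miR-133a-3p (-2.18) and miR-133b-3p (-2.18) fell in serum, and 2 of 3 red cell and 1 of 4 platelet miRNAs fell, while none of these falls passed without scaling. The part of any of these cell types in the miR-181 values was not tested.

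**Figure D4:**
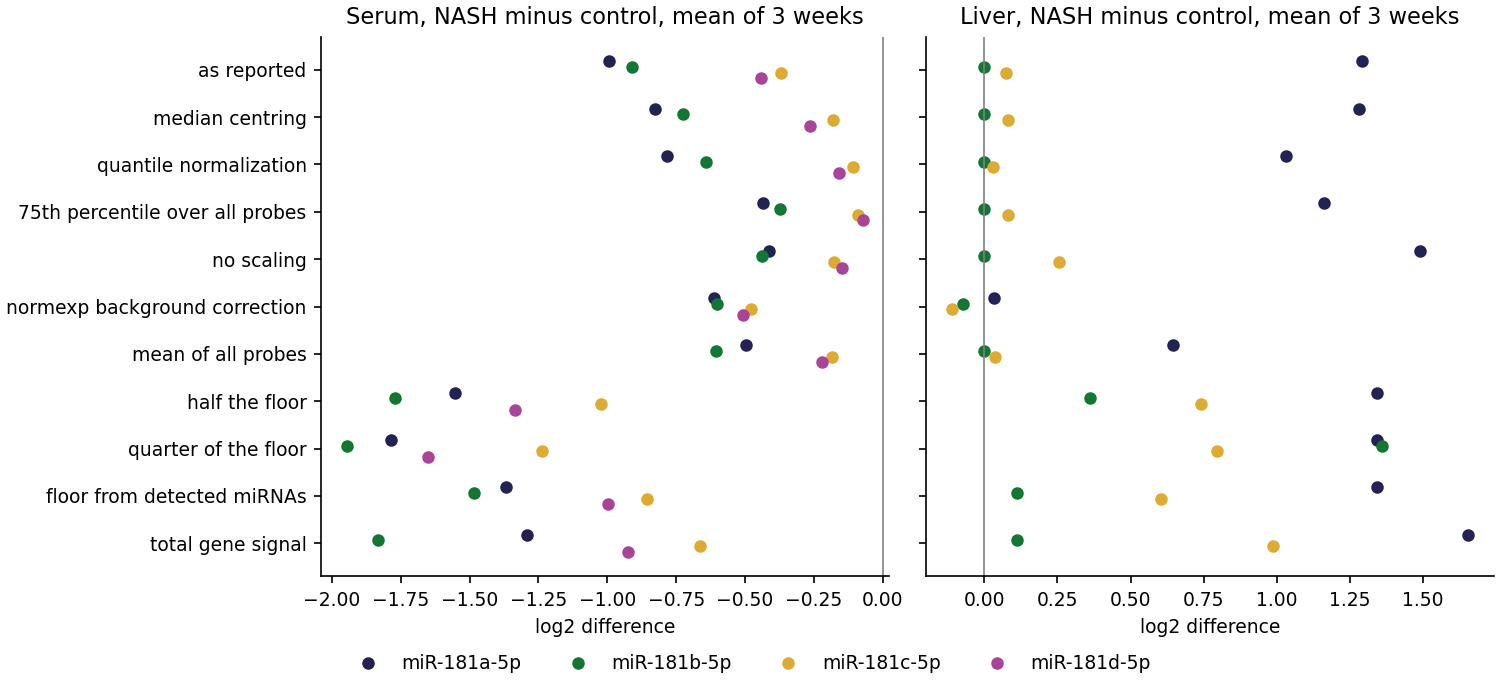
Fitted NASH minus control difference (log2, mean of 3 weeks) of each member in serum (left) and liver (right), for the reported setting and each alternative scaling, background correction, probe rule and floor; miR-181d-5p was not tested in liver. All serum values lie below 0, from -1.95 to -0.070, and in liver miR-181a-5p lies between 0.034 and 1.65.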

How the data were processed

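The authors deposited scanner output of 24 one-colour arrays (Agilent Feature Extraction 11.5, per the submitters' processing notes). Per the file headers, the values are background-subtracted intensity per spot with a detection flag per miRNA, not normalized between arrays. Members and lists were chosen with earlier results of these data known. Control and outlier spots were dropped, spots of a probe averaged, and each array divided by its 75th percentile over the probes that passed the background flag on every array of the fit (253 in serum, 299 in liver). The floor was each array's 5th percentile of flagged scaled signal, as the median across arrays, then log2 was taken, and the brightest probe stood for a miRNA. Of tested values 39.1% in serum and 35.6% in liver lay at the floor. miRNAs detected on at least 2 arrays were fitted with limma 3.58.1 (R 4.3.3) on the 6 diet-by-week groups of a tissue, or on 12 groups for liver against serum. Calls have a Benjamini-Hochberg adjusted p under 0.05. Summed list levels and array totals were tested by exact permutation, two-sided, swapping diets inside each week. Named miRNAs are the members, the 3 closest per tissue, and per list the first entry and up to 4 called miRNAs. Tested on simulated data, 49 of 50 planted differences of 1.5 (log2) were recovered in serum with 1 false call, and 50 of 50 in liver with 1. The members' fitted mean diet differences were smaller in the reported setting (-0.995 to -0.37 in serum, 0 to 1.29 in liver). Recovery of differences of those sizes was not tested, and no recovery rate is given for miRNAs near the floor. The normexp alternative used median signals, since mean signals were not used here. Each slide held both diets of a week, diet ran with slide column, so the 2 cannot be told apart, and the number of arrays limits precision.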

Additional observations from a re-analysis of the deposited data

Results flagged for a closer look

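For each member every NASH array lay below the control mean of its week in serum and above it in liver, so the direction differed between tissues under the same diet. The NASH to control ratio of mean levels was 0.248 in serum and 2.57 in liver for miR-181a-5p. It was 0.420 in serum and 1.71 in liver for miR-181c-5p. The serum ratio was 0.232 for miR-181b-5p and 0.303 for miR-181d-5p, and no liver ratio is given for them because no control liver detected either. The difference between tissues was not tested, because the members had been chosen by it. Of 16 sets of 6 arrays (4 members, 2 tissues, 2 diets) checked for a single distant array, 0 had one, while chance alone gives about 1 in 20.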

How the results depend on the processing

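In serum every alternative kept all 4 diet differences below 0, and leaving out 1 array in turn gave -1.13 to -0.83 for miR-181a-5p, -1.03 to -0.76 for miR-181b-5p, -0.46 to -0.23 for miR-181c-5p and -0.55 to -0.31 for miR-181d-5p. Values that moved by more than the spread between arrays follow in the order of members, miR-181a to miR-181d. With the 75th percentile over all probes they were -0.43, -0.37, -0.089 and -0.070. No scaling gave -0.41 and -0.44 for miR-181a and miR-181b and -0.15 for miR-181d, and quantile normalization -0.64 for miR-181b, -0.11 for miR-181c and -0.16 for miR-181d. Normexp background correction gave -0.61 and -0.60 for miR-181a and miR-181b. The mean of all probes gave -0.50, -0.61 and -0.22 for miR-181a, miR-181b and miR-181d. With the floor at 0.5 of its value they were -1.55, -1.77, -1.02 and -1.34, and, chosen after seeing the data, -1.79, -1.95, -1.24 and -1.65 at 0.25 of the floor, -1.37, -1.48, -0.86 and -0.996 with a floor from detected miRNAs, and -1.29, -1.83, -0.66 and -0.93 on the total gene signal. Scaling moved the median of all 426 miRNAs from -0.11 to 0.046 with none.

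In liver the difference of miR-181a-5p was 0.034 with normexp, 1.49 with no scaling, 1.03 with quantile normalization, 0.65 over all probes and 1.65 on the total gene signal, and 1.21 to 1.34 without any 1 array. miR-181b-5p moved off its floor to -0.072 (normexp), 0.36 and 1.36 (0.5 and 0.25 of the floor), 0.11 (floor from detected miRNAs) and 0.11 (total gene signal). miR-181c-5p turned to -0.11 with normexp and was 0.25 with no scaling, 0.74 and 0.80 with the lower floors, 0.61 with the floor from detected miRNAs and 0.99 on the total gene signal. No scaling moved the median of all 388 miRNAs from 0.00 to 0.19 and the calls from 85 higher and 79 lower to 117 and 9. In serum they went from 21 higher and 59 lower to 37 and 7.

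Week 2 minus week 1 in control serum turned for miR-181c-5p to -0.18 with the percentile over all probes and -0.61 with no scaling, and for miR-181d-5p to -0.44 with no scaling. Week 6 minus week 2 in NASH liver turned for miR-181a-5p to 0.17 (percentile over all probes), 0.16 (no scaling), 0.063 (quantile), 0.030 (total gene signal), 0.055 (without NASH week 2 replicate 1) and 0.097 (without NASH week 6 replicate 2), and for miR-181c-5p to -0.094 with normexp. In control liver miR-181a-5p turned to 0.023 with no scaling and 0.018 without control week 2 replicate 2. Without any 1 array these ran from -0.28 to 0.097 in NASH and -0.22 to 0.018 in control liver. None of the miR-181a-5p values in NASH liver passed. Members have no test for week 2 minus week 1 in control serum, or for week 6 minus week 2 in control liver. They have none for the difference between weeks either, so no calls are given for these under the alternatives.

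Counts of calls over all miRNAs moved as follows. For serum diet (80), normexp gave 365, the percentile over all probes 39, no scaling 44, no detection filter 35, and 0.25 of the floor 140. Leaving out 1 array gave 48 to 118, with 51 without NASH week 1 replicate 1, 49 without NASH week 2 replicate 1 and 48 without NASH week 6 replicate 2. For liver diet (164) the percentile over all probes gave 100, no filter 109, 0.25 of the floor 258, and leaving out 1 array 141 to 173. For liver against serum on chow (351), detection on all arrays gave 118 and leaving out 1 array 331 to 362. For week 2 minus week 1 in control serum (5), normexp gave 330, no scaling 31, the total gene signal 13, 0.25 of the floor 8, 0.5 of the floor 3, the percentile over all probes and median centring 2 each, no filter and the slide row as a block 1 each, and quantile normalization and detection on all arrays 0 each (38 and 19 at an unadjusted p under 0.05). Leaving out 1 array gave 0 to 40. For NASH serum (0, with 14 at an unadjusted p under 0.05) the percentile over all probes gave 3, no scaling 2, the total gene signal 1, and leaving out 1 array 0 to 7. The difference between weeks in serum (2) gave 7 on the total gene signal, 1 with quantile normalization, no filter, the slide row block or the floor from detected miRNAs, and 0 with normexp, no scaling, detection on all arrays or 0.5 of the floor (208, 44, 30 and 37 unadjusted). Leaving out 1 array gave 1 to 30.

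In control liver, week 6 minus week 2 (2) gave 22 with the floor from detected miRNAs, 21 with 0.25 of the floor, 19 on the total gene signal, 15 with no scaling or 0.5 of the floor, 9 with quantile normalization, 8 with median centring, 7 with the percentile over all probes, 1 with no filter, and 0 with normexp or detection on all arrays (14 and 35 unadjusted), and 0 to 21 without any 1 array. In NASH liver (13) it gave 7 with median centring or quantile normalization, 6 with the percentile over all probes, 5 with 0.5 or 0.25 of the floor, 4 with no filter, 2 with no scaling, and 0 with normexp or detection on all arrays (27 and 32 unadjusted), and 4 to 29 without any 1 array. The difference between weeks in liver (13) gave 21 with median centring, 3 with no scaling, 1 with no filter and 0 with normexp or detection on all arrays (33 and 44 unadjusted), and 2 to 35 without any 1 array.

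Whether replicate numbers pair the arrays was not settled: same-numbered deviations correlated at 0.55 and 0.14 in serum weeks 1 and 2 and at -0.60, 0.42 and 0.49 in liver. The replicate number was also the slide row on every array, so replicate and row cannot be told apart. With the replicate number as a block, serum diet calls were 23 and liver ones 147. The block left 0 calls for week 2 minus week 1 in control serum (55 unadjusted; miR-181a-5p 1.64) and for the difference between weeks there (44), 0 for both liver week contrasts (50 and 66), and 1 for the difference between weeks in liver. Where a count moved, the cause was not tested. The members' dim signal is the main limit: all NASH serum values and most liver values lie under the floor of the fit, so fitted sizes there are set by it, and 2 arrays per group limit the weekly comparisons.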
